A study of Mus musculus with 12 samples.

Results

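Homeobox genes encode transcription factors that bind DNA through a homeodomain. Their families were taken from the count table by gene symbol alone, with no measured value used: every symbol made of Hoxa, Hoxb, Hoxc, Hoxd, Irx, Lhx, Pbx, Meis, Dlx, Msx, Pax, Otx, Emx, Onecut or Six-family and a number, or of Nkx and its numbers. A symbol does not show whether a member, such as a Pax gene, encodes a full homeodomain. This gave 104 of the 24489 genes: 11 Hoxa, 10 Hoxb, 9 Hoxc, 9 Hoxd, 14 Nkx, 9 Pax, 7 Lhx, 6 Dlx, 6 Irx, 6 Six-family, 4 Pbx, 3 Meis, 3 Msx, 3 Onecut, 2 Emx and 2 Otx genes. As background, the Hox clusters set position along the head-to-tail axis, the Pbx and Meis proteins are DNA-binding partners of Hox and other homeodomain proteins, and Dlx genes act in neural crest and forebrain. The Six-family proteins work with Eya and Dach co-factors in the placode from which the inner ear and its neurons arise, while the glia of the spiral ganglion come from the neural crest and the otic mesenchyme from the tissue around the ear. Which members were on in neurons, glia, mesenchyme and hair cells, and at which stage, was the question put to the data.

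Reporter-positive cells of the mouse cochlea were sorted one per well into 384-well plates and their mRNA was sequenced by Smart-seq2, a full-length protocol without molecular identifiers. Spiral ganglia were dissected, or the central core of the cochlea at E14.5 and E15.5 (embryonic days), and several animals were pooled in an experiment, so a plate is the replicate and p-values measure the spread between plates. There were 2 plates of E14.5, 2 of E15.5, 3 of E16.5, 1 of E17.5, 2 of E18.5 and 2 of P3 (postnatal day). The P3 plates came from earlier work of the same group. All plates are untreated and labelled PVcre;Ai14, in which Cre made from the parvalbumin locus turns on tdTomato, apart from E14.5 replicate 2, which is labelled TrkCcre, so that the driver cannot be told apart from the plate at that stage. The study's methods instead name an Ntrk3 (TrkC) driver for E14.5 as a whole and the parvalbumin driver for all later stages. The labels were followed here, and if the methods hold for both plates, driver and E14.5 cannot be told apart. The drivers decide which cells enter the sort, and the numbers of cells of a class were not compared. The plate names form 4 series, and series and stage cannot be told apart in part of the data: E14.5, E15.5, E17.5 and E16.5 replicate 3 are of one series (SS2_20), E16.5 replicates 1 and 2 of another, E18.5 and P3 each of one of their own.

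After a filter on detected genes and spike-in share, 4226 of 4608 wells were kept, with 80997600 to 303907000 counts per plate (to 6 digits). No well name occurred in more than 1 plate. Cells were clustered per stage without the homeobox genes and given a class from marker lists: 2311 cells were like spiral ganglion neurons (SGN-like), 1103 glia-like, 570 like otic mesenchyme (OM-like) and 86 like hair cells (HC-like, 27 of them named vestibular and the other 59 taken as cochlear), and 156 stayed unnamed. The 59 include the 12 HC-like cells of E16.5, which were not split into cochlear and vestibular. Counts were then added over the cells of a class on a plate, and levels are CPM (counts scaled to a library of 1e6) of these sums, 12 for SGN-like, 9 for glia-like, 9 for OM-like and 5 for cochlear HC-like cells. Cell numbers per sum were 61 to 376 for SGN-like, 5 to 239 for glia-like, 5 to 197 for OM-like and 4 to 24 for HC-like cells. The floor, 3 counts, corresponds to at most 0.200 CPM in SGN-like, 3.33 CPM in glia-like, 1.83 CPM in OM-like and 2.43 CPM in HC-like sums. Neither the floors nor any interval cover more than counting error. The sums did not hold 1 cell type alone. All 10 neuronal markers were counted in glia-like and OM-like sums, together at 482 to 652 CPM and 86.1 to 220.1 CPM on SS2_20 plates and at 3954 to 9193 CPM and 6631 to 9248 CPM on E16.5 replicates 1 and 2 and E18.5 replicate 1, against 14052 to 21175 CPM in SGN-like sums. All 10 glial markers were counted in SGN-like sums, at 129 to 808 CPM on SS2_20 plates and 1052 to 4647 CPM on the others, against 7893 to 18454 CPM in glia-like sums. In cochlear HC-like sums all 5 markers of cochlear epithelium reached 3594 to 8990.0 CPM and all 6 vestibular hair cell markers 794 to 3829 CPM, beside 3222 to 9153 CPM for the 10 hair cell markers. Whether such admixed RNA plays a part in a member's level was not tested, so values on SS2_20 plates are given beside the others where they differ.

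Promoter sequence was at hand for 18 of the 27 members found on in any class (RefSeq, GRCm38.p6). Patterns that recur below are each shown by 1 promoter: Dlx2, on in SGN-like, glia-like and OM-like cells, Hoxa2, on in glia and mesenchyme, and Six2, on in all 4 classes. Each run is the 250 bases before the gene's annotated start, 5′ to 3′ on the gene's own strand, the minus strand in all 3 cases: chr2:71546755-71547004 for Dlx2, chr6:52164832-52165081 for Hoxa2 and chr17:85688255-85688504 for Six2. Capitals mark TAAT (the core letters of many homeodomain sites) and TGACAG (letters bound by Meis-type proteins) on either strand, that is TAAT or ATTA and TGACAG or CTGTCA, which can share bases where they abut.
Dlx2: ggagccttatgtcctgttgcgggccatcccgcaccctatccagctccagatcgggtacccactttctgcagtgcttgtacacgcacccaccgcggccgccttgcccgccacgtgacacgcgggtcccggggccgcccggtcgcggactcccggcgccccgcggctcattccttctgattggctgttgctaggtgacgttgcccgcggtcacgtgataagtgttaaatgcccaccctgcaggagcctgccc
Hoxa2: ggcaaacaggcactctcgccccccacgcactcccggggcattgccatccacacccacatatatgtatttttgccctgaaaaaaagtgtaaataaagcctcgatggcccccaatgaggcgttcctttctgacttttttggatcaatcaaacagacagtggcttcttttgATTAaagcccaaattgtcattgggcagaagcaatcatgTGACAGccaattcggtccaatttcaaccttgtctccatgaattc
Six2: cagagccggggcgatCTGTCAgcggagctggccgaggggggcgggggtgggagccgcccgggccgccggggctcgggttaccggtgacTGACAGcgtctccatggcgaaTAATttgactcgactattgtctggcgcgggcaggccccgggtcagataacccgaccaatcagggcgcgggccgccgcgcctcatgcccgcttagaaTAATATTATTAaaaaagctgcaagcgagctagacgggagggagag

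The Dlx2 window held none of these letters, the Hoxa2 window held 1 TAAT or ATTA and 1 TGACAG, and the Six2 window 4 of the first and 2 of the second. Over all 18 windows, 7 (38.9%) held TAAT or ATTA and 5 (27.8%) held TGACAG or CTGTCA, against 54.9% and 15.9% of 32851 windows of the same length over all genes. A match describes letters only.

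A member was called on in a class at a stage when it reached 10 CPM in every sum of that stage, off when it stayed under 1 CPM in every one, and on in a class when it was on at 1 stage or more. Of the 104 members, 27 were on in at least 1 class, and 34 stayed under 1 CPM in every sum. In a class sum, fewer cells with a gene and less RNA of it per cell cannot be told apart. By class, 15 were on in SGN-like cells, 18 in glia-like, 21 in OM-like and 14 in HC-like cells. These shares were smaller than among all genes, of which 45.1%, 45.0%, 46.8% and 44.2% were on by the same rule. Irx2, Meis3, Pbx2, Pbx3 and Six2 were among those on in all 4 classes. Dlx1, Dlx2, Meis1 and Onecut2 were on in SGN-like, glia-like and OM-like cells, Meis2 and Six4 in all classes but glia-like, Pbx4 in all but OM-like and Six5 in all but SGN-like cells. Irx3 and Irx5 were on in OM-like and HC-like cells, Hoxa2 in glia-like and OM-like, and Irx1 in SGN-like and glia-like cells. In 1 class alone by this rule were Dlx5, Lhx8, Nkx6-1 and Pax9 (OM-like), Emx2 (HC-like) and Hoxb9, Hoxc5 and Six6 (glia-like, where all 3 rest on the 5 cells of E18.5 replicate 1). Dlx5 was not absent from glia-like cells. Per kilobase of exon its mean level was 1.90 CPM in glia-like and 2.01 CPM in OM-like sums, and on SS2_20 plates alone it was on in glia-like cells too. Small sums bear on these counts: with at least 10 cells per sum, 10 members were on in glia-like cells (among others Hoxb9, Hoxc5, Irx1, Irx2, Onecut2, Six2 and Six6 no longer on), 19 in OM-like (not Dlx1 and Onecut2), 12 in HC-like (not Meis2 and Pbx2) and 15 in SGN-like cells.

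By stage, the members on in SGN-like cells were 12 at E14.5, 13 at E15.5, 12 at E16.5, 11 at E17.5, 13 at E18.5 and 10 at P3, and those in glia-like cells 9 at E14.5, 9 at E15.5, 9 at E16.5, 8 at E17.5 and 17 at E18.5. In OM-like cells they were 18 at E14.5, 9 at E15.5, 10 at E16.5, 12 at E17.5 and 13 at E18.5, and in HC-like cells 7 at E16.5, 11 at E17.5 and 12 at E18.5. In SGN-like cells Irx1, Irx2, Meis3, Onecut2, Pbx3, Pbx4, Six2 and Six4 were on at all 6 stages, Meis1 at E14.5 and E15.5, Meis2 from E14.5 to E17.5, Pbx2 at E15.5, E16.5 and E18.5, and Dlx1 and Dlx2 at E18.5. In glia-like cells Dlx1, Dlx2, Meis1, Meis3, Pbx2, Pbx3 and Six5 were on at all 5 stages, Hoxa2 at E14.5 and E15.5, and Pbx4 at E16.5 and E18.5, while Hoxb9, Hoxc5, Irx1, Irx2, Onecut2, Six2 and Six6 were on in the 5 cells of E18.5 alone. In OM-like cells Irx2, Irx5, Meis3, Pbx3, Six4 and Six5 were on at all 5 stages and Irx3 from E14.5 to E17.5. Six2 was on there at E14.5, E16.5 and E18.5, Pbx2 at E14.5, E17.5 and E18.5, Nkx6-1 at E14.5 and E17.5, Dlx2 at E14.5 and E18.5, Dlx5, Lhx8, Meis1, Meis2 and Pax9 at E14.5 alone, Hoxa2 at E17.5 alone and Dlx1 and Onecut2 at E18.5 alone. In HC-like cells Irx2, Meis3, Six2 and Six4 were on at all 3 stages, Irx3, Irx5, Pbx3 and Pbx4 at E17.5 and E18.5, Emx2 and Six5 at E18.5, Pbx2 at E17.5 and Meis2 at E16.5.

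**Figure D1:**
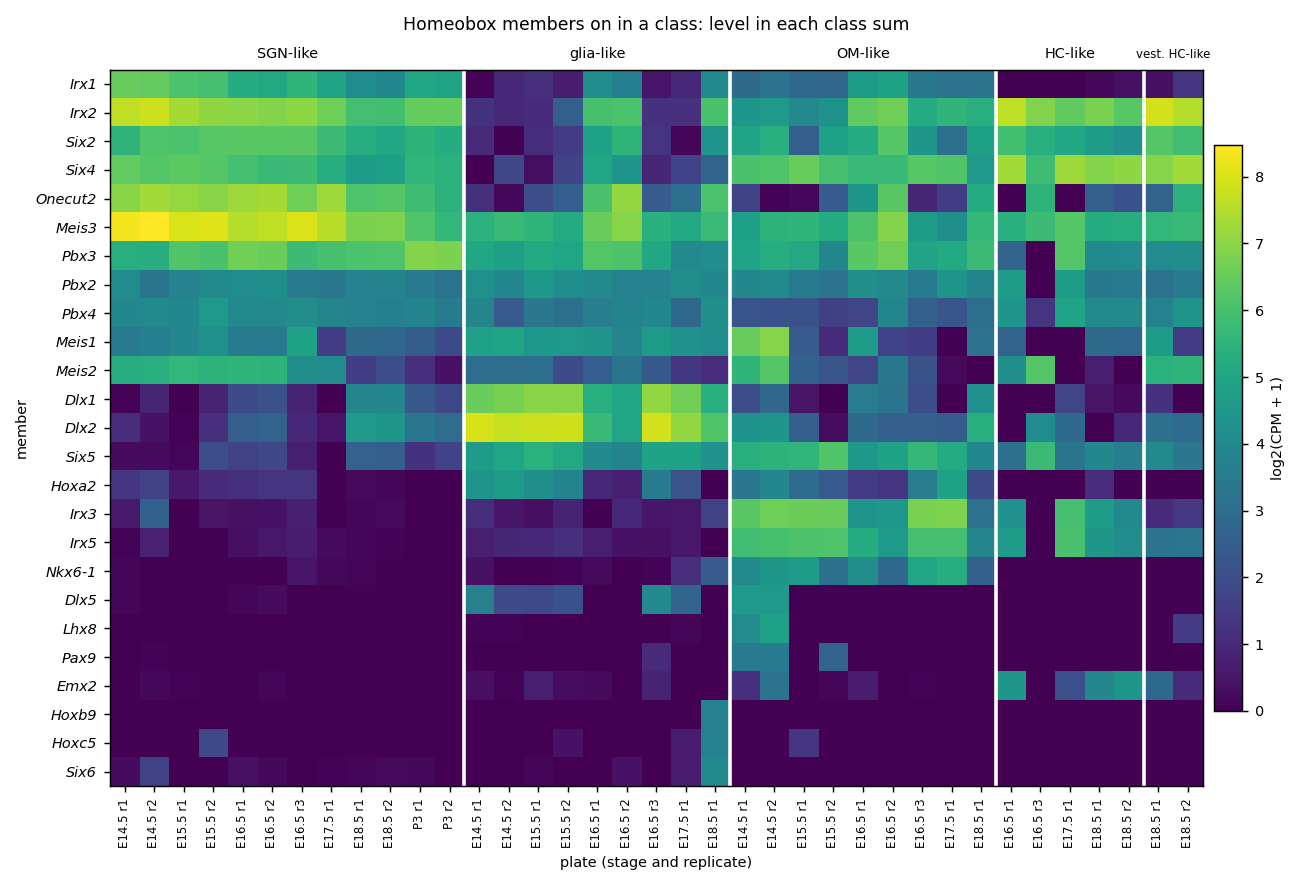
Level of members on in any class, as log2(CPM + 1), in every class sum, the 2 vestibular HC-like sums included, ordered by class and stage. Irx2, Onecut2 and Meis3 run through the SGN-like columns, Dlx1 and Dlx2 through the glia-like columns and Irx3 and Irx5 through the OM-like columns, while Dlx5, Lhx8 and Pax9 appear at E14.5 in the OM-like block.

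Many Hox and Nkx genes stayed low. Under 1 CPM in every sum were 5 of 11 Hoxa genes, 5 of 10 Hoxb, 7 of 9 Hoxc, 6 of 9 Hoxd and 7 of 14 Nkx genes, and of the remaining Hox genes only Hoxa2, Hoxb2, Hoxb9 and Hoxc5 reached 10 CPM anywhere. The 34 members under 1 CPM throughout were Hoxa4, Hoxa6, Hoxa10, Hoxa11, Hoxa13, Hoxb5, Hoxb6, Hoxb7, Hoxb8, Hoxb13, Hoxc4, Hoxc6, Hoxc8, Hoxc9, Hoxc10, Hoxc11, Hoxc12, Hoxd3, Hoxd4, Hoxd9, Hoxd10, Hoxd12, Hoxd13, Lhx5, Nkx2-2, Nkx2-3, Nkx2-4, Nkx2-5, Nkx2-6, Nkx2-9, Nkx6-2, Otx1, Pax4 and Six3. Between these and the members that were on stood 43 others. Of these, Dlx3, Dlx6, Hoxb2, Lhx6 and Pax2 were among those that reached 10 CPM in 1 sum or more without being on, and 37 had their highest level between 1 and 10 CPM.

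In neurons, members of the Irx, Six-family, Meis, Pbx and Onecut families were on at every stage. Over the 12 SGN-like sums Meis3, a TALE co-factor, ranged from 48.2 to 356 CPM with a median of 195. Irx2 ranged from 59.9 to 226 CPM with a median of 124 and Onecut2, a factor of neuronal maturation, from 42.7 to 159 CPM with a median of 125. All sums were thus far above the on threshold for these 3 genes, and the highest values of Meis3 and Irx2 were those of E14.5. Irx1 ranged from 14.49 to 90.4 CPM with a median of 35.5, Six2 from 32.7 to 78.6 CPM with a median of 61.4 and Six4 from 24.9 to 86.7 CPM with a median of 54.1. Of the Pbx genes, which encode Hox co-factors, Pbx3 ranged from 37.7 to 119 CPM with a median of 68.5 and Pbx4 from 10.1 to 22.4 CPM with a median of 14.4, while Pbx2 lay close to the threshold (8.07, 12.6 and 17.7 CPM as lowest, median and highest). Per kilobase of exon, the mean levels in SGN-like sums were 61.6 CPM per kb for Meis3, 37.2 for Irx2 and 26.6 for Six2. At 50000 counts per cell, 87.8% (95% interval 86.4 to 89.1, and 96.7% with no thinning) of SGN-like cells held an Irx2 count and 81.4% (95% interval 79.7 to 83.0, and 90.6% with no thinning) an Onecut2 count. In glia-like cells the shares were 4.86% and 4.58%. The intervals, here and below, are exact binomial over cells pooled from all plates, and leave out the spread between plates and stages. The median depths were 348507 and 252425 counts.

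Dlx1 and Dlx2 were on in SGN-like cells at E18.5 only. Dlx2 stood at 22.9 and 21.6 CPM in the 2 E18.5 sums and at 9.12 and 7.11 CPM at P3, against at most 5.58 CPM in the 8 earlier sums. The glial markers summed to 1052 to 4647 CPM in SGN-like sums of E16.5 replicates 1 and 2, E18.5 and P3, against 129 to 808 CPM in those of SS2_20 plates. With the cells left out that carried markers of another class (mixed cells, 927 of the SGN-like, 955 of the glia-like, 91 of the OM-like and 44 of the HC-like cells), neither Dlx1 nor Dlx2 was on in SGN-like cells. The part of glial RNA in these values was otherwise not tested.

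**Figure D2:**
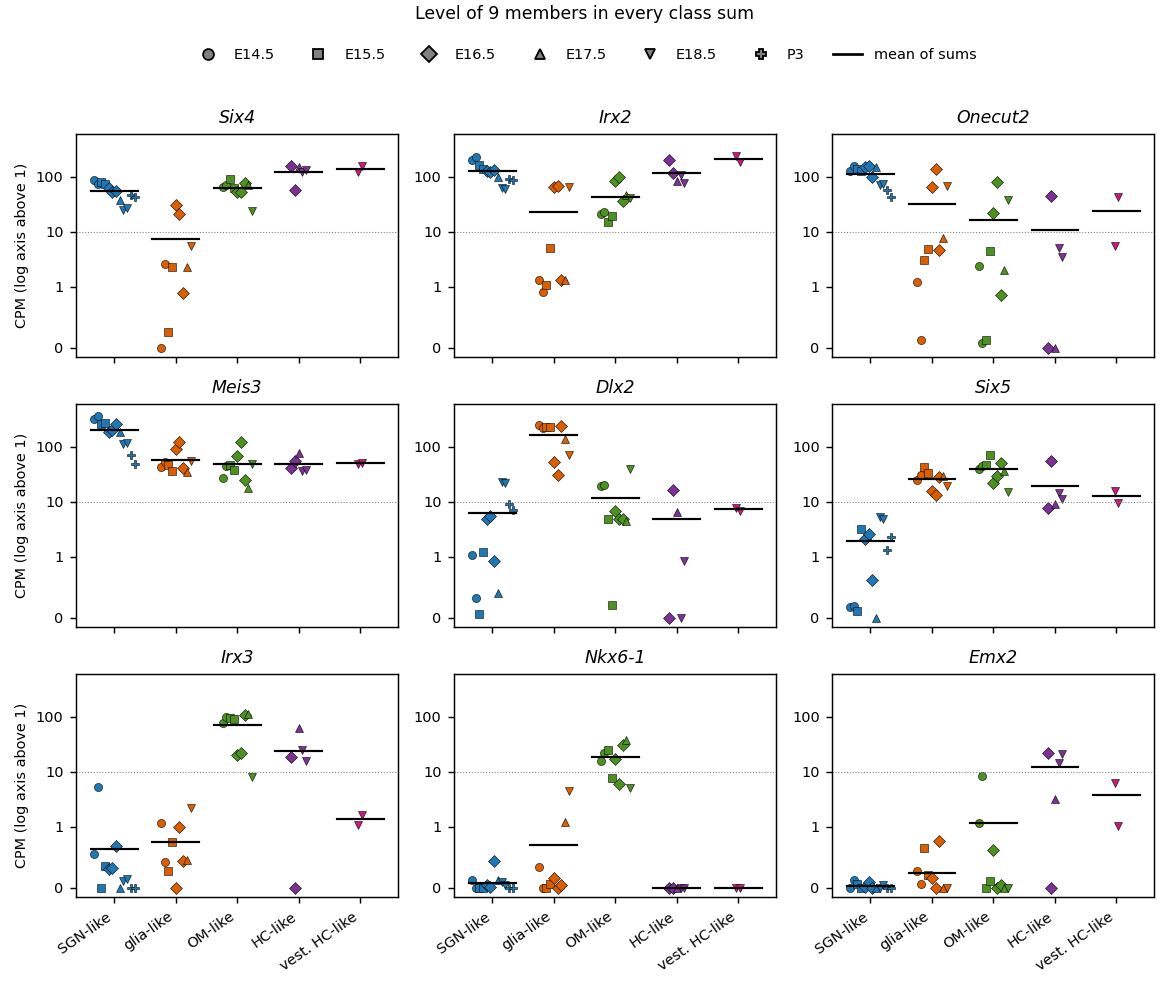
Level (CPM, log axis above 1) of selected members in every sum of the 4 classes and in the 2 vestibular HC-like sums, with a marker shape for each stage, a bar for the mean of the sums and a dotted line at 10 CPM. Dlx2 sums are highest in the glia-like column and Irx3 sums in the OM-like and HC-like columns, and the lowest Six4 and Irx2 sums lie in the glia-like column.

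Glia differed from neurons in having the Dlx pair and Six5, with Hoxa2 on at E14.5 and E15.5, and in having little of the Six-family, Irx and Onecut genes of the neurons. Dlx2, a factor of neural crest and forebrain, stood at 248 and 219 CPM in the glia-like sums of E14.5, 229 and 232 CPM at E15.5, 51.7, 31.0 and 235 CPM at E16.5 (replicates 1 to 3), 136 CPM at E17.5 and 71.1 CPM at E18.5. Its neighbour Dlx1 stood at 92.0, 106, 125, 126, 39.5, 31.0, 138, 99.8 and 40.0 CPM in the same order. For both genes every glia-like sum was above every SGN-like sum, and the lowest glia-like values were those of E16.5 replicates 1 and 2, whose sums held 6408 and 9193 CPM of neuronal markers. Irx2, in contrast, was at 1.34 and 0.908 CPM at E14.5 and 1.08 and 4.98 CPM at E15.5, but at 63.7 and 66.2 CPM in those 2 E16.5 sums, against 1.29 CPM in E16.5 replicate 3. Six2, Six4, Irx1 and Onecut2 had the same split. In glia-like sums these members were low on SS2_20 plates, with few neuronal markers, and high in E16.5 replicates 1 and 2, with many. Those 2 sums held 17 and 9 cells, against 227 in E16.5 replicate 3, and are of another plate series. Marker level, cell number and series cannot be told apart here, and their part was not tested. At 50000 counts per cell, 76.8% (95% interval 74.2 to 79.3, and 79.5% with no thinning) of glia-like cells held a Dlx2 count, against 18.8% of SGN-like and 10.0% of OM-like cells.

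The comparison of glia-like with SGN-like sums on the 9 plates that held both (edgeR's quasi-likelihood test with stage as a term, adjusted over all 14035 genes tested) had 25 of the 104 members past the filter on low counts. It called 17, 8 higher and 9 lower in glia-like cells, where 60.6% of all genes were called, 29.6% higher and 31.1% lower. Over these members the median log2 fold change was -0.45, and over all genes it was -0.02. Dlx2 (log2 fold change 6.60, SE 1.01, adjusted p = 9.04e-05) and Dlx1 (log2 fold change 6.51, SE 1.00, adjusted p = 9.67e-05) had the largest differences, from 4.15 ± 7.32 CPM of Dlx2 in SGN-like to 162 ± 89.3 CPM in glia-like sums (mean ± SD, n = 9 each). Msx2, a BMP-responsive factor, was also higher (log2 fold change 5.38, SE 0.87, adjusted p = 0.000136) at levels of only 3.69, 1.07, 7.82, 2.67, 3.17, 2.31, 3.35, 3.19 and 2.22 CPM. Six5, a Six-family gene linked to muscle disease, was higher (log2 fold change 4.75, SE 0.84, adjusted p = 0.000266), from 1.58 ± 1.84 to 26.3 ± 9.22 CPM. Of the Hox genes, Hoxb3 (log2 fold change 4.04, SE 0.68), Hoxb2 (3.65, SE 0.87) and Hoxa2 (3.25, SE 0.75), genes of the hindbrain and its neural crest, were higher. Adjusted p was 0.000184, 0.00249 and 0.00199. Hoxb3 and Hoxb2 were low in glia-like sums too, at 3.89 ± 1.19 and 4.75 ± 3.20 CPM (mean ± SD, n = 9), and were not on there. Lower were Irx1 (-4.22, SE 1.03), Six2 (-4.20, SE 1.07), Irx2 (-4.07, SE 1.11), Six4 (-3.84, SE 0.97) and Onecut2 (-3.42, SE 1.05). Their adjusted p ran from 0.0028 to 0.0113. Also called were Meis2, Meis3 and Pbx3, lower by -2.58, -1.95 and -0.79, and Meis1, higher by 1.10. Hoxa2 and Pbx3 were no longer called with mixed cells left out (adjusted p = 0.0824 and 0.148). No member's call was lost without any 1 plate, but values moved by over 1.5-fold without E16.5 replicate 1 for Irx1 (to -4.83) and without E16.5 replicate 2 for Hoxb2 (4.25), Six2 (-4.83) and Onecut2 (-4.08).

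Hoxa2 belongs to the Hox genes expressed furthest forward in the hindbrain. In glia-like sums it was at 19.8 and 23.9 CPM at E14.5, 17.6 and 13.2 CPM at E15.5, 0.951, 0.659 and 10.2 CPM at E16.5, 3.50 CPM at E17.5 and 0 CPM at E18.5, where 5 cells give a floor of 3.33 CPM. Within the glia-like clusters, the levels of Dlx2 were lower in the cluster of E15.5 led by Egfl8 and Prss12 (121 and 111 CPM in the 2 plates) than in the one led by Kcnip4 and Mpped1 (305 and 370.3 CPM), given as a description of clusters with no test.

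Otic mesenchyme was marked by Irx3, Irx5 and Nkx6-1 and shared Six4 with neurons. Irx3 and Irx5, neighbours on chromosome 8, are patterning factors. Irx3 stood at 77.6 and 97.1 CPM at E14.5, 93.6 and 91.9 CPM at E15.5, 20.1, 21.9 and 109 CPM at E16.5, 114 CPM at E17.5 and 7.92 CPM at E18.5. Irx5 stood at 57.6, 62.9, 67.7, 70.5, 37.2, 22.3, 61.0, 60.2 and 13.6 CPM in the same order. The lower values were those of E16.5 replicates 1 and 2 and E18.5 replicate 1, the OM-like sums with 6631 to 9248 CPM of neuronal markers, and still lay above every SGN-like and glia-like sum of both genes. Nkx6-1, best known from ventral spinal cord and pancreas, stood at 15.4, 21.5, 24.5, 7.68, 17.1, 6.05, 31.0, 38.3 and 5.09 CPM, against at most 0.434 CPM in SGN-like and 4.44 CPM in glia-like sums. At 50000 counts per cell, 68.0% (95% interval 63.9 to 71.8, and 73.0% with no thinning) of OM-like cells held an Irx3 count, against 0.654% of SGN-like and 1.31% of glia-like cells, and 33.3% (95% interval 29.4 to 37.3, and 39.8% with no thinning) held an Nkx6-1 count. By stage the Nkx6-1 share was 28.1% at E14.5, 32.4% at E15.5, 43.0% at E16.5 and 62.8% at E17.5, a wider spread than the interval. Six4 ranged over the 9 OM-like sums from 23.2 to 89.2 CPM with a median of 64.6 and Six5 from 14.7 to 71.5 CPM with a median of 39.3.

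Against SGN-like sums of the same 9 plates, 23 of the 104 members passed the filter and 17 were called, of which 7 had more and 10 had less RNA in OM-like sums (edgeR, 13741 genes tested), where 54.7% of all genes were called, 27.8% higher and 27.0% lower. The median log2 fold change was -0.53 over these members and -0.03 over all genes. Nkx6-1 (log2 fold change 7.87, SE 0.87, adjusted p = 1.31e-05), Irx5 (log2 fold change 7.79, SE 0.65, adjusted p = 3.32e-06), Irx3 (log2 fold change 7.17, SE 0.84, adjusted p = 1.8e-05) and Six5 (log2 fold change 5.38, SE 0.86, adjusted p = 0.000166) were higher, with no overlap between the classes. Hoxa2 was higher by 3.08 (SE 0.71, adjusted p = 0.00238) and Dlx2 by 2.19 (SE 0.80, adjusted p = 0.0305) on the log2 scale. The Dlx2 call is weak: adjusted p was 0.085 without E14.5 replicate 1, 0.0736 without E14.5 replicate 2, 0.112 without E15.5 replicate 1, 0.0659 without E17.5 replicate 1, 0.0677 with the plate as a block and 0.847 with mixed cells left out. Lower were Onecut2 (log2 fold change -4.21, SE 1.11), Onecut3 (-3.85, SE 1.03), Pax6 (-3.0, SE 0.69), Meis2 (-2.42, SE 0.66), Meis3 (-2.24, SE 0.31) and Irx1 (-2.05, SE 0.38), with adjusted p from 5.73e-05 to 0.007. Onecut3 and Pax6 are low in both classes, their SGN-like means being 3.18 and 2.91 CPM. Irx2, Pbx4 and Six2 were lower as well, with log2 fold changes from -1.74 to -1.15. Meis2 was not called with mixed cells left out (adjusted p = 0.0628) or on SS2_20 plates alone (0.0662). Values moved by over 1.5-fold for Onecut2 without E16.5 replicate 2 (to -5.05) and for Irx3 without E14.5 replicate 2 (to 7.81).

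Against glia-like sums, 11 of the 23 members past the filter were called, of which 6 had more and 5 had less RNA in OM-like sums (edgeR, 13352 genes tested), where 16.9% of all genes were called, 9.05% higher and 7.85% lower. Over these members the median log2 fold change was 0.13, and over all genes it was -0.03. Irx3 (log2 fold change 7.0, SE 0.64, adjusted p = 8.29e-06), Nkx6-1 (log2 fold change 6.82, SE 1.09, adjusted p = 0.000573), Irx5 (log2 fold change 6.43, SE 0.29, adjusted p = 7.95e-09) and Six4 (log2 fold change 4.07, SE 0.97, adjusted p = 0.00883) were higher in OM-like cells, and Dlx1 (log2 fold change -4.83, SE 0.90, adjusted p = 0.00178), Dlx2 (log2 fold change -4.38, SE 0.65, adjusted p = 0.000325) and Hoxb2 (log2 fold change -3.58, SE 0.77, adjusted p = 0.00443) lower. Hoxb3 (log2 fold change -2.80, SE 0.83, adjusted p = 0.0305) and Pbx4 (-1.22, SE 0.34, adjusted p = 0.0227) were lower too. These last 2 calls were each lost when any 1 of several plates was left out. The adjusted p of Hoxb3 was 0.0541 without E14.5 replicate 1, 0.0815 without E14.5 replicate 2, 0.059 without E16.5 replicate 1, 0.0501 without E16.5 replicate 2, 0.0662 without E16.5 replicate 3 and 0.0505 without E17.5 replicate 1, and its log2 fold change moved to -3.66 without E15.5 replicate 2. That of Pbx4 was 0.0841 without E14.5 replicate 1, 0.0617 without E15.5 replicate 1, 0.0692 without E15.5 replicate 2 and 0.0529 without E16.5 replicate 3. Hoxb2 was not called with mixed cells left out (adjusted p = 0.0545). Irx1, Irx2, Six2 and Six5, higher in the mean of OM-like sums, missed the threshold (adjusted p = 0.0578, 0.0677, 0.052 and 0.125). With the plate as a block Irx1, Irx2 and Six2 passed it (adjusted p = 0.0275, 0.0231 and 0.0362), and Six5 did not (0.0601).

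The levels of several members differed among the OM-like clusters of E14.5, which were made without the members. Dlx5, Lhx8 and Pax9, genes of the jaw and pharyngeal arches, were counted in OM-like sums at E14.5 at 23.2 and 22.2 CPM, 15.9 and 28.0 CPM and 10.6 and 10.6 CPM. There was no count of Dlx5 or Lhx8 in any later OM-like sum and a Pax9 level of 5.50 CPM in E15.5 replicate 2 alone. In the 2 plates of E14.5, the cluster led by Gdf5, Epyc and Pamr1 held Dlx5 at 220.3 and 142 CPM, Lhx8 at 138 and 180.2 CPM, Dlx2 at 175 and 125 CPM, Meis1 at 513 and 463 CPM and no Nkx6-1 count. Among the leading genes of that cluster was Dlx6os1, antisense to a member, which had stayed among the genes used for clustering. The cluster led by Col1a1, Aldh1a2 and Crabp1 held Pax9 at 89.6 and 80.3 CPM, Meis1 at 287 and 383 CPM and Meis2 at 200.4 and 347 CPM. Irx3 was highest in the clusters led by Otor (184 and 240.1 CPM), Coch (98.8 and 101 CPM) and Thsd4 (94.9 and 113 CPM), and Six2 in the cluster with the cartilage genes Matn1, Acan and Hapln1 (98.0 and 187 CPM). The clusters thus differed in which members they held in both plates, given here without a test.

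**Figure D3:**
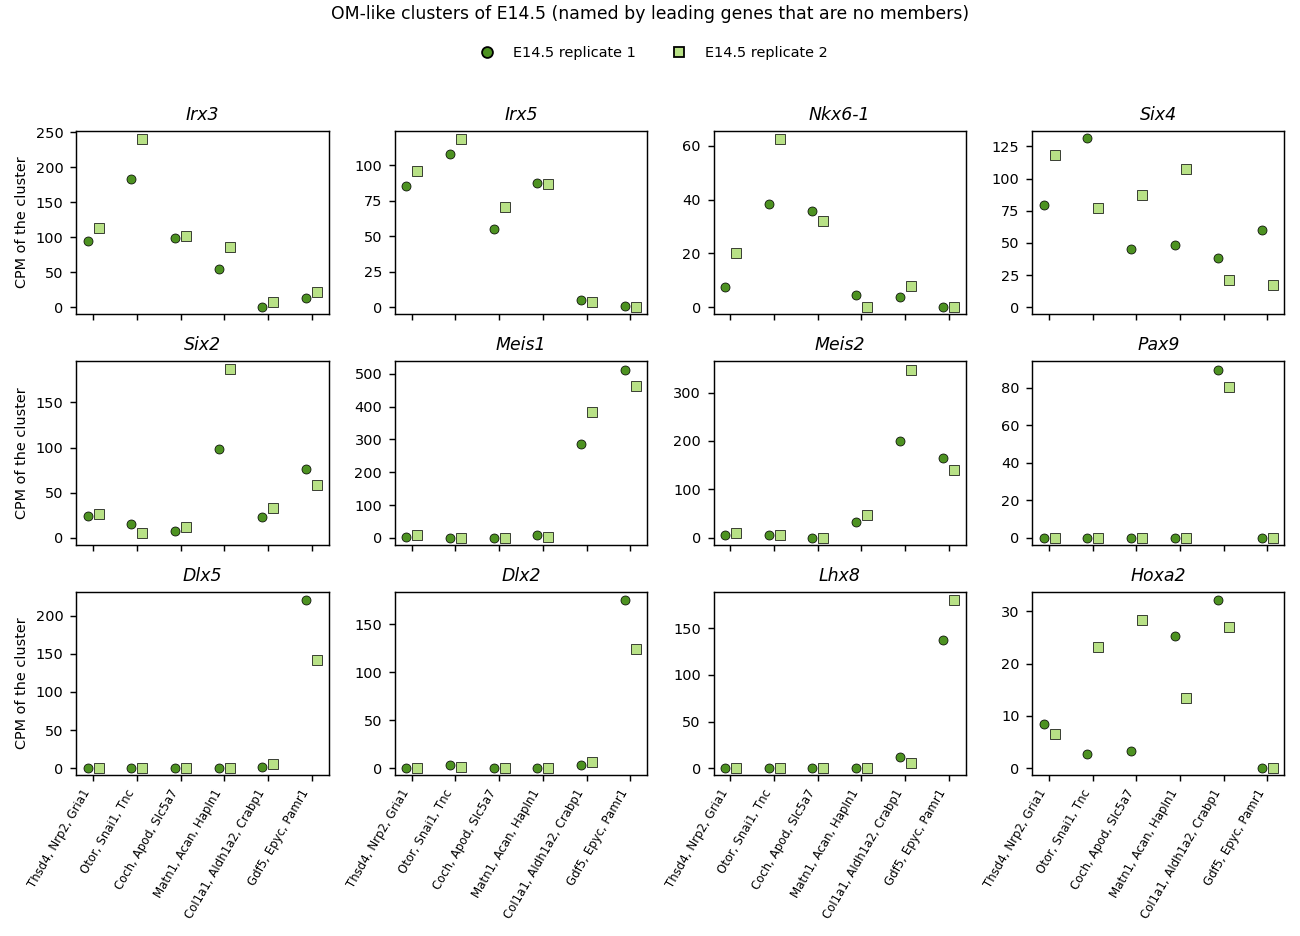
Level (CPM) of members in the OM-like clusters of E14.5, each cluster named by its leading genes, with a point for each of the 2 plates. Dlx5 and Lhx8 points lie high in the Gdf5 cluster, Pax9 points in the Col1a1 cluster and Irx3 points in the Otor, Coch and Thsd4 clusters.

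Cochlear HC-like sums held Six4 and Irx2 as neurons did, Irx3 and Irx5 as mesenchyme did, and Emx2. In the 2 vestibular HC-like sums of E18.5, Irx3 was at 1.06 and 1.65 CPM. Irx5 was at 8.46 and 9.09 CPM there and Emx2 at 6.35 and 1.03 CPM, all under the on threshold of 10 CPM. The cochlear HC-like sums hold 4 to 24 cells: those of E16.5 are 1 cluster of 12 cells whose leading genes include Otog, Tecta and Epcam, not split into cochlear and vestibular. Those of E17.5 and E18.5 are 1 cluster of 47 cells (cluster 8) whose 10 leading genes, Tecta and Gjb2 first, include no marker of the hair cell list and 1 of the mesenchyme list, Lum. Six4 stood at 157 and 56.3 CPM in E16.5 replicates 1 and 3, 151.28 CPM at E17.5 and 119 and 131 CPM at E18.5. E16.5 replicate 3, a sum of 8 cells with 0 CPM of the outer hair cell markers, 8990.0 CPM of epithelial and 252 CPM of melanocyte markers, was the lowest. Emx2, which orients hair bundles, was in the same order at 21.6, 0, 3.24, 14.2 and 21.2 CPM, Irx3 at 18.6, 0, 62.3, 24.3 and 15.4 CPM and Irx5 at 24.6, 0, 64.7, 21.5 and 16.8 CPM, each with no count in E16.5 replicate 3. The 10 mesenchyme markers, each counted in 1 sum or more, summed in the same order to 174, 2.96, 663, 2895 and 560.1 CPM, and the 4 chondrocyte markers to 1279 to 4209.9 CPM. The part of these markers' cells in the Irx3 and Irx5 levels was not tested. Emx2 was under 1 CPM in all SGN-like and glia-like sums and reached at most 8.38 CPM in OM-like sums, in E14.5 replicate 2. At 50000 counts per cell, 35.6% (95% interval 23.6 to 49.1, and 67.8% with no thinning) of cochlear HC-like cells held an Emx2 count, against 0.174% of SGN-like and 3.52% of OM-like cells. Irx1, on in neurons, had 3 counts over all 5 HC-like sums, and Nkx6-1, on in mesenchyme, none. A count of Irx3 was held by 47.5% of the HC-like cells. Pax2, an early otic gene, was at 20.6, 0, 2.43, 7.49 and 6.15 CPM.

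Against the SGN-like sums of the same 5 plates, 17 of the 104 members passed the filter and 4 were called (edgeR, 13524 genes tested), where 25.1% of all genes were called, 11.1% higher and 13.9% lower. The median log2 fold change was -0.10 over these members and -0.27 over all genes. Irx1 was lower in HC-like cells, by a ratio of 157 with a counting interval of 53.6 to 759.5 (adjusted p = 0.000484), Onecut2 was lower (log2 fold change -3.72, SE 1.17, adjusted p = 0.0463), Meis3 was lower (log2 fold change -1.67, SE 0.23, adjusted p = 0.001) and Six4 higher (log2 fold change 1.79, SE 0.38, adjusted p = 0.00868). Meis3 went from 172 ± 62.3 CPM in SGN-like to 49.3 ± 16.4 CPM in HC-like sums, and Six4 was at 41.0 ± 16.4 CPM and 123 ± 40.3 CPM (mean ± SD, n = 5 each). Single plates decide much of this comparison. Without E16.5 replicate 3, 9 members were called, Emx2, Irx3, Irx5 and Pax2 being among those added, and without E18.5 replicate 1 or 2 only 2. Six4 had adjusted p = 0.0719 without E18.5 replicate 1 and 0.0717 without E18.5 replicate 2. Onecut2 had adjusted p = 0.0732 without E16.5 replicate 1, 0.0842 without E17.5 replicate 1, 0.177 without E18.5 replicate 1 and 0.193 without E18.5 replicate 2, 0.0613 with the plate as a block and 0.103 with vestibular hair cells kept, and its log2 fold change moved to -5.19 without E16.5 replicate 3 and -3.09 without E17.5 replicate 1. The fitted value of Irx1 moved to -8.56 without E18.5 replicate 2.

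In SGN-like cells Irx1, Irx2, Six4, Meis2 and Meis3 were lower at E17.5 and E18.5 than at E14.5, and Pbx3 was higher. Irx1 stood at 90.4 and 85.4 CPM in the 2 E14.5 sums, 30.2 CPM at E17.5 and 16.4 and 14.49 CPM in the 2 E18.5 sums. Irx2 stood at 202 and 226 CPM, 96.8 CPM and 61.2 and 59.9 CPM, and Meis3 at 319 and 356 CPM, 187 CPM and 109.9 and 114 CPM. Every later sum was below both E14.5 sums for these 3 genes. Six4 went from 86.7 and 73.6 CPM to 37.9, 24.9 and 26.4 CPM. Pbx3 went the other way, from 39.5 and 37.7 CPM to 63.1, 66.5 and 70.5 CPM. It was not a steady rise, with 72.1 and 64.7 CPM at E15.5 and 101, 94.2 and 55.3 CPM at E16.5. Meis2 was at 37.5 and 38.7 CPM at E14.5, 15.9 CPM at E17.5 and 1.95 and 3.11 CPM at E18.5. In between, Meis2 stood at 47.6 and 43.4 CPM at E15.5 and 45.5, 43.2 and 17.7 CPM at E16.5.

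**Figure D4:**
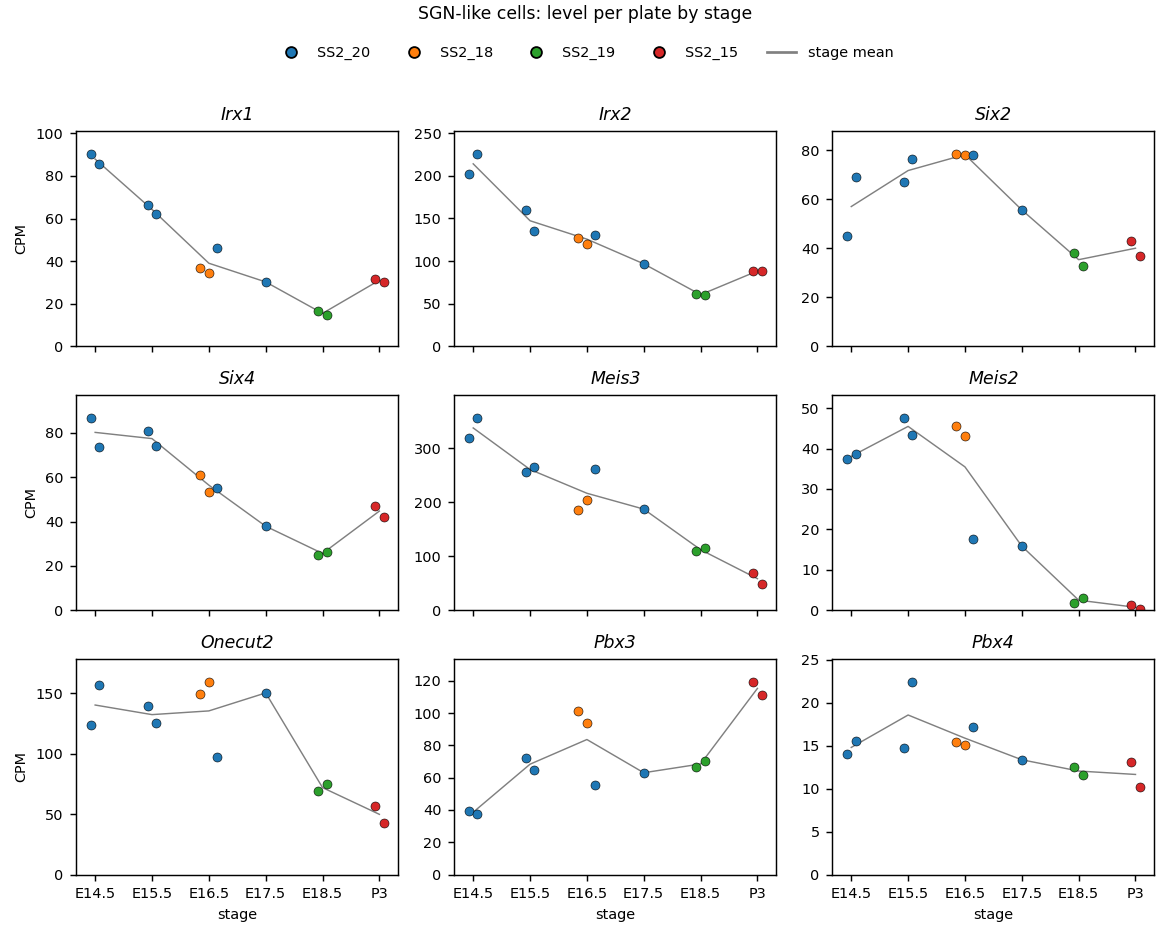
Level (CPM) of members in the 12 SGN-like sums against stage, with 1 point per plate coloured by plate series and a line through the stage means. Irx1, Irx2, Six4 and Meis3 lie highest at E14.5, Pbx3 lies higher from E17.5 on than at E14.5, and Meis2 is low in the sums of E18.5 and P3.

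With all 12 SGN-like sums in 1 fit, 36 of the 104 members passed the filter and 11 were called between E14.5 (2 sums) and E17.5 and E18.5 (3 sums), 9 lower and 2 higher at the later stages (edgeR, 16812 genes tested), where 21.0% of all genes were called, 12.2% higher and 8.77% lower. Over these members the median log2 fold change was -1.24, and over all genes it was 0.09. Irx1 (log2 fold change -2.14, SE 0.28, adjusted p = 0.000394), Irx2 (log2 fold change -1.58, SE 0.19, adjusted p = 0.000279), Six4 (log2 fold change -1.46, SE 0.19, adjusted p = 0.000366) and Meis3 (log2 fold change -1.32, SE 0.24, adjusted p = 0.00326) fell, and these 4 calls held without any 1 plate. Pbx3 rose (log2 fold change 0.77, SE 0.21, adjusted p = 0.0272), with adjusted p = 0.0969 without E14.5 replicate 1, 0.112 without E14.5 replicate 2, 0.0611 without E18.5 replicate 1 and 0.0697 without E18.5 replicate 2. Meis2 fell (log2 fold change -2.52, SE 0.80, adjusted p = 0.0446), with adjusted p = 0.112 without E14.5 replicate 1, 0.111 without E14.5 replicate 2, 0.102 without E18.5 replicate 1 and 0.127 without E18.5 replicate 2 and a log2 fold change of -3.94 without E17.5 replicate 1. Hoxa2 fell (log2 fold change -4.17, SE 0.99, adjusted p = 0.0151) from only 1.51 and 2.10 CPM, with adjusted p = 0.0646 without E18.5 replicate 2 and a log2 fold change of -4.82 without E18.5 replicate 1. Irx3 (log2 fold change -4.83, SE 1.50, adjusted p = 0.0459) rests on E14.5 replicate 2, labelled TrkCcre: it stood at 0.544 and 5.18 CPM in the 2 E14.5 sums, and adjusted p was 0.379 without E14.5 replicate 2, 0.0735 without E17.5 replicate 1, 0.121 without E18.5 replicate 1 and 0.105 without E18.5 replicate 2. Its log2 fold changes were -2.45 and -5.65 without E14.5 replicates 2 and 1. Lhx2, with 0 and 1.97 CPM at E14.5 and 1 count in the sums of E17.5 and E18.5, a ratio of 229.8 with a counting interval of 38.2 to 9375, was called (adjusted p = 0.0321) but reversed without E14.5 replicate 2 (log2 fold change 1.91, adjusted p = 0.832). Without E14.5 replicate 1, E18.5 replicate 1 and E18.5 replicate 2 it was -8.41, -9.22 and -6.65. Its adjusted p was then 0.0136, 0.0877 and 0.113, and adjusted p was 0.0509 without E17.5 replicate 1. The count of called members was 6 without E18.5 replicate 2 and 7 without E18.5 replicate 1, and 6 on SS2_20 plates alone, where the later stage is the single E17.5 plate. Six4 and Pbx3 among others were not called there (adjusted p = 0.0528 and 0.186).

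From E17.5 and E18.5 to P3 Meis2, Meis3 and Onecut2 fell and Pbx3 and Six4 rose. Meis3 stood at 69.2 and 48.2 CPM in the 2 P3 sums, Meis2 at 1.22 and 0.32 CPM and Onecut2 at 56.8 and 42.7 CPM, against 150.1, 69.3 and 74.5 CPM of Onecut2 at E17.5 and E18.5. Pbx3 stood at 119 and 111 CPM and Six4 at 47.2 and 42.2 CPM. In the same fit 9 of the 36 members were called, 2 higher and 7 lower at P3, where 29.5% of all genes were called. The median log2 fold change was -0.61 over these members and -0.07 over all genes. Lhx6 (log2 fold change -3.59, SE 0.82, adjusted p = 0.00722), Meis2 (-3.11, SE 0.91, adjusted p = 0.0243), Meis3 (-1.23, SE 0.26, adjusted p = 0.00416) and Onecut2 (-0.98, SE 0.33, adjusted p = 0.0451) fell, and Pbx3 (0.78, SE 0.20, adjusted p = 0.0136) and Six4 (0.59, SE 0.19, adjusted p = 0.0338) rose. Hoxa2, Irx3 and Irx5, under 1 CPM at E17.5 and E18.5, had no count at P3 and were at least 13.8-fold, 14.8-fold and 8.6-fold lower against a floor of 3 counts over the P3 sums.

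The 2 P3 plates decide this comparison, since 1 member (Hoxa2) was called without P3 replicate 2 and 4 without P3 replicate 1. Without P3 replicate 2, adjusted p was 0.0536 for Meis3, 0.0752 for Lhx6, 0.164 for Meis2 (log2 fold change -2.49), 0.25 for Onecut2, 0.0631 for Pbx3, 0.101 for Six4, 0.15 for Irx3 and 0.126 for Irx5. Without P3 replicate 1 it was 0.0884 for Onecut2, 0.0886 for Pbx3, 0.198 for Six4, 0.0641 for Hoxa2, 0.189 for Irx3 and 0.157 for Irx5, and Meis2 moved to -4.40. Without E17.5 replicate 1 it was 0.0517 for Meis2 (log2 fold change -1.68) and 0.112 for Onecut2. Without E18.5 replicate 1 it was 0.122 for Six4, 0.0753 for Irx3 and 0.059 for Irx5, and without E18.5 replicate 2 0.117, 0.085 and 0.0527. With mixed cells left out it was 1 for Hoxa2, 0.157 for Irx3 and 0.0578 for Lhx6. For Irx3 it was also 0.766 with the cell filter of the study's reporting form, 0.0509 at Leiden resolution 2 and 0.0549 when the genes of the glial code entered the clustering. The Hoxa2 value moved to -5.28 without E18.5 replicate 1. P3 and the plate series cannot be told apart, and clusters 0 (104 cells) and 3 (55 cells) of the P3 neurons had 1 marker of another class (Espn, Lum) and none of the neuronal list among their 10 leading genes.

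Meis2, a TALE factor, was not spread evenly over the neurons. At E16.5 it stood at 160.0, 149 and 61.4 CPM (replicates 1 to 3) in the cluster led by Colgalt2 and Lypd1 and at 143.1 and 151.01 CPM (replicates 1 and 2) in the one led by Fam19a2 and Hs3st2, while no other SGN-like cluster of that stage passed 13.1 CPM in any plate. At E15.5 the cluster led by Syt4 and Clu held 72.3 and 122 CPM against 39.2 and 26.6 CPM in the other. In the Pou4f1 and Lypd1 cluster of the later stages it was at 57.0 CPM at E17.5 and at 5.12 and 8.96 CPM at E18.5, and at P3 no cluster passed 6.65 CPM. These are descriptions of clusters made without the homeobox genes, with no test.

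**Figure D5:**
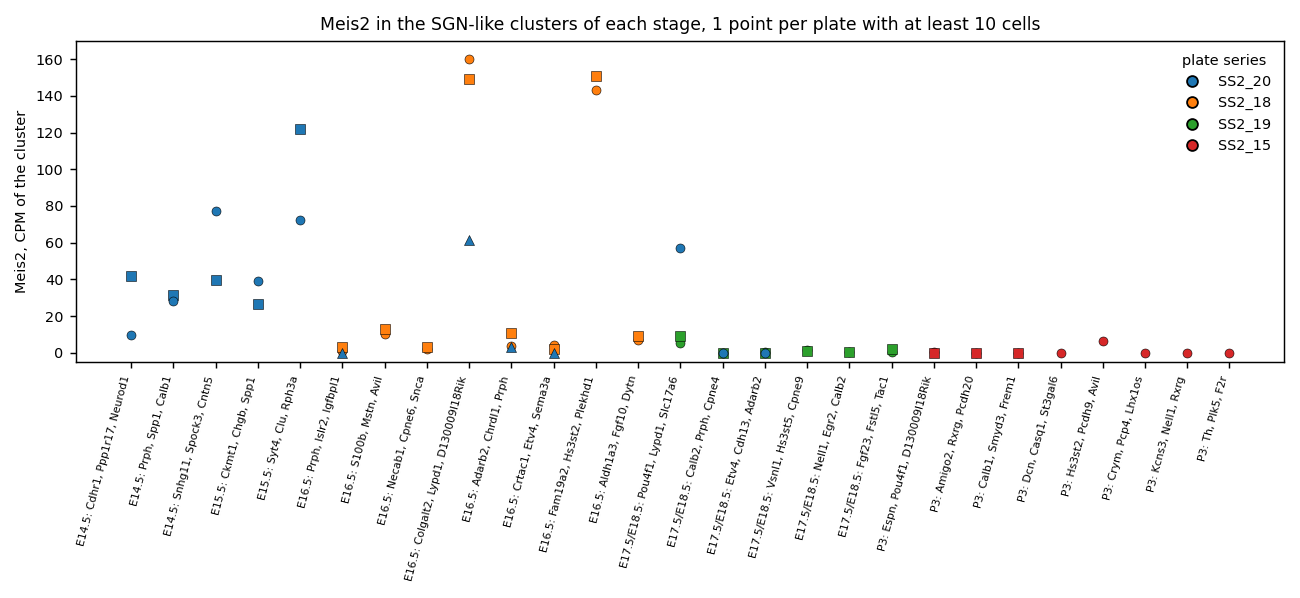
Level of Meis2 (CPM) in each SGN-like cluster and plate with at least 10 cells, by stage; circles, squares and triangles are replicates 1, 2 and 3, and colours are plate series. The Colgalt2 and Fam19a2 clusters of E16.5 stand above the other clusters of that stage, and all P3 points are at 6.65 CPM or less.

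In glia-like and OM-like cells no member was called between E14.5 (2 sums) and E16.5 to E18.5 (5 sums). Of 40 members past the filter in glia-like cells 0 were called by edgeR (16222 genes tested, 0.0% of all genes called), 8 had an unadjusted p under 0.05 and DESeq2 called 5 (Irx1, Irx2, Onecut2, Six2 and Six6). Over these members the median log2 fold change was 0.46, and over all genes it was 0.06. Irx1, Irx2, Onecut2 and Six2 were high in the glia-like sums of E16.5 replicates 1 and 2 and E18.5 replicate 1 alone. Of 33 members past the filter in OM-like cells 0 were called by edgeR (14528 genes tested, 0.0% of all genes called), 8 had an unadjusted p under 0.05 and DESeq2 called 3 (Dlx5, Lhx8 and Meis2). The median log2 fold change was -0.60 over these members and 0.02 over all genes. Dlx5, Lhx8 and Pax9 had no count in the 5 later OM-like sums, which puts them at least 281.7-fold, 279.4-fold and 131.5-fold lower than at E14.5 against a floor of 3 counts over those sums (edgeR adjusted p = 0.666, 0.666 and 0.697). Those sums held 5, 10, 71, 44 and 6 cells, and the OM-like clusters of these stages were led by Otor and Tgfbi. Whether cells like the Gdf5 and Col1a1 clusters of E14.5 were sampled later was not tested, so such cells missing and less RNA per cell cannot be told apart. Meis1 stood at 89.6 and 123 CPM at E14.5 and 24.4, 2.27, 1.88, 0 and 7.92 CPM in the later sums, and Meis2 at 46.3 and 74.6 CPM and 2.44, 9.82, 3.30, 0.174 and 0 CPM. The later sums lie below both E14.5 sums for both genes, and the tests missed the threshold (adjusted p = 0.697 and 0.697).

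Type II neurons, the few that contact outer hair cells, could be named at E18.5 and P3 only (65 II-like cells). Six2 stood at 15.9, 18.3 and 9.62 CPM in the II-like sums of E18.5 replicates 1 and 2 and P3 replicate 1, against 42.6, 36.1 and 45.4 CPM in the other named neurons of these plates. The groups did not overlap. Of 23 members past the filter 6 were called, all lower in II-like cells (edgeR, 14910 genes tested), where 8.91% of all genes were called, 3.98% higher and 4.93% lower. Over these members the median log2 fold change was -0.55, and over all genes it was -0.06. Among those called were Six2 (log2 fold change -1.53, SE 0.25, adjusted p = 0.0157), Irx1 (log2 fold change -1.08, SE 0.25, adjusted p = 0.0437), Onecut2 (log2 fold change -1.02, SE 0.20, adjusted p = 0.0282) and Six4 (log2 fold change -0.99, SE 0.20, adjusted p = 0.0294). With the plate as a block 3 were called, adjusted p being 0.0904 for Irx1, 0.0571 for Onecut2 and 0.0517 for Six4. None of these 4 calls held without each plate. Without E18.5 replicate 1, adjusted p was 0.107 for Six2, 0.372 for Irx1, 0.101 for Onecut2 and 0.244 for Six4. Without E18.5 replicate 2 it was 0.0526, 0.203, 0.116 and 0.156 in that order, and without P3 replicate 1 it was 0.0576 for Irx1. The glial markers summed to 3890.5 to 6987 CPM in the II-like and 3681 to 4614 CPM in the other sums of E18.5 and P3, and their part was not tested.

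Of the Meis and Pbx genes, whose proteins are TALE co-factors, Meis3, Pbx2 and Pbx3 were among those on in all 4 classes. Pbx3 ranged from 15.04 to 72.7 CPM with a median of 31.9 in glia-like and from 14.6 to 99.8 CPM with a median of 35.1 in OM-like sums, with its highest values on E16.5 replicates 1 and 2. Meis3 ranged from 34.2 to 122 CPM with a median of 45.4 in glia-like and from 17.6 to 119 CPM with a median of 43.6 in OM-like sums, its highest values lying in E16.5 replicate 2 for both. All these sums were above 10 CPM. Meis1 ranged from 13.5 to 30.2 CPM with a median of 21.9 in glia-like sums, above the threshold in all 9, and from 1.94 to 28.8 CPM with a median of 10.0 in SGN-like sums. Pbx2 lay near the threshold in each class, with medians of 15.4 CPM in glia-like, 14.2 CPM in OM-like and 10.00 CPM in HC-like sums. Pbx4 had medians of 11.4, 3.62 and 15.48 CPM in the same order. Six2, which keeps progenitors of the kidney undifferentiated, ranged from 4.91 to 74.1 CPM with a median of 28.0 in OM-like and from 18.6 to 58.7 CPM with a median of 32.4 in HC-like sums, and Irx2 from 14.7 to 99.8 CPM with a median of 36.3 in OM-like and from 76.1 to 200.3 CPM with a median of 109 in HC-like sums.

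Some neighbouring members of a family had like patterns. Over the 37 class sums, Pearson's r of log2(CPM + 1) was 0.95 for Irx3 and Irx5 (556 kb apart on chromosome 8) and 0.92 for Dlx1 and Dlx2 (9.43 kb apart on chromosome 2, in opposite directions), but 0.47 for Irx1 and Irx2 (665 kb apart on chromosome 13) and -0.20 for Six6 and Six4 (155 kb apart on chromosome 12). The median over all 351 pairs of members on was 0.03. The pattern most like that of Irx2 was that of Six2 (r = 0.93), that of Lhx8 was most like Pax9 (0.82), and after Irx5 that of Irx3 was most like Nkx6-1 (0.78). These are descriptions, since sums of a plate share cells, depth and animals. Per kilobase of exon, the mean levels in glia-like sums were led by Dlx2 at 54.5 CPM per kb, Irx3 was in OM-like sums at 25.5, and Irx2 in HC-like sums at 34.0 CPM per kb. Whether counting used strand is not given in the sources used here, and genes antisense to members had counts too. The median of Dlx1as was 23.7 CPM in glia-like and 0.137 CPM in SGN-like sums, that of Emx2os 21.0 CPM in HC-like and that of Lhx1os 4.29 CPM in SGN-like sums. Levels of Dlx1, Emx2 and Lhx1 may hold antisense reads.

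The co-factors that these proteins work with were taken as a list of 19 genes: the Six-family partners Eya1 to Eya4, Dach1, Dach2 and Sobp, the Lhx partners Ldb1, Ldb2 and Lmo1 to Lmo4, the Meis relatives Pknox1 and Pknox2, and the Groucho co-repressors Tle1 to Tle4. All 19 were tested in every comparison. In glia-like against SGN-like cells 12 were called, 4 higher and 8 lower (against 60.6% called of all genes tested), among them the Six-family partners Eya1 (-3.76, SE 0.84, adjusted p = 0.00153), Dach1 (-3.35, SE 0.86, adjusted p = 0.00383) and Eya4 (-3.16, SE 0.60, adjusted p = 0.000476) lower and Lmo4 (2.73, SE 0.33, adjusted p = 1.7e-05) higher on the log2 scale. In OM-like against SGN-like cells 10 were called, 7 higher and 3 lower (against 54.7% called of all genes tested), with Eya2 (2.55, SE 0.66, adjusted p = 0.0049) higher and Tle4 (-2.75, SE 0.70, adjusted p = 0.00467) lower, and against glia-like cells 7 were called, 5 up and 2 down (against 16.9% called of all genes tested), with Eya2 (4.29, SE 0.76, adjusted p = 0.00131) and Eya1 (2.62, SE 0.69, adjusted p = 0.0161) higher. In HC-like against SGN-like cells 7 were called, 5 higher and 2 lower (against 25.1% called of all genes tested), with Eya2 (4.30, SE 1.16, adjusted p = 0.0254) and Lmo1 (3.83, SE 0.32, adjusted p = 8.31e-05) higher and Tle4 (-3.86, SE 0.65, adjusted p = 0.00279) lower. In neurons 12 were called between E14.5 and E17.5 and E18.5, 10 of them lower (against 21.0% called of all genes tested), with Eya2 (-4.80, SE 0.54, adjusted p = 0.000172), Tle1 (-3.97, SE 0.23, adjusted p = 4.04e-06) and Sobp (-3.40, SE 0.54, adjusted p = 0.0014) the ones that fell most, and 6 at P3 (against 29.5%), with Eya2 (2.80, SE 0.50, adjusted p = 0.00185) higher and Sobp (-2.47, SE 0.58, adjusted p = 0.00844) lower. In II-like neurons 4 were called (against 8.91% called of all genes tested), Tle4 (1.33, SE 0.20, adjusted p = 0.0115) and Pknox1 (1.2, SE 0.23, adjusted p = 0.0243) higher and Tle2 (-3.38, SE 0.73, adjusted p = 0.0368) and Eya1 (-1.14, SE 0.11, adjusted p = 0.00239) lower. In the stage comparisons of glia-like and OM-like cells 0 were called by edgeR, 2 and 1 had an unadjusted p under 0.05, and DESeq2 called 1 and 0. Several of these calls were lost when single plates were left out. For Eya1 in OM-like against glia-like cells adjusted p was 0.0598 without E14.5 replicate 1, 0.0604 without E14.5 replicate 2, 0.058 without E15.5 replicate 1 and 0.0577 without E15.5 replicate 2, and for Eya2 in HC-like cells 0.258 without E16.5 replicate 1, 0.0621 without E17.5 replicate 1, 0.123 without E18.5 replicate 1 and 0.108 without E18.5 replicate 2, and 0.146 with the plate as a block. For Sobp at P3 it was 0.069 without P3 replicate 2. In II-like cells it was 0.133 without E18.5 replicate 1 and 0.105 without E18.5 replicate 2 for Tle2, 0.157 without E18.5 replicate 1 and 0.0867 without E18.5 replicate 2 for Pknox1 and 0.0554 without E18.5 replicate 1 for Tle4, and with the plate as a block 0.0712 for Tle2 and 0.051 for Pknox1.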

How the data were processed

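Single cells from 12 plates were analysed, each plate being 1 sample. The authors deposited raw counts per gene and well. Their processing notes name STAR, Scanpy and mm10 without versions, and whether counting used strand is not given in the sources used here. A plate of 384 wells that belongs to no sample was not used. Wells with over 1000 genes and under 5% spike-in counts were kept. Cells were clustered per stage (scanpy 1.11.5, Leiden 0.10.2, 2000 variable genes, 30 components, resolution 1), without the members, the partner genes and a list of glial genes, but with genes antisense to members. Classes were named from marker lists by a rule set after the cluster tables were seen and before any test. No doublet caller was run. The study gated doublets out in the sort and, in some clusters, also took cells far from their cluster on its map as doublets. That second step was not repeated here. An alternative left out mixed cells, those with markers of another class.

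Counts were summed per class and plate, with at least 5 cells (3 for hair cells), and tested by edgeR 4.0.16 (R 4.3.3) with TMM scaling, its filter on low counts and the quasi-likelihood test, with Benjamini-Hochberg adjustment over all genes tested and a threshold of 0.05. DESeq2 1.42.0 was an alternative. Classes of a plate come from the same pool of animals, so the plate pairs them (r of deviations from -0.07 to 0.65), and the plate as a block was an alternative. Comparisons share sums. Shares of cells were taken after thinning to 50000 counts, with exact binomial (Clopper-Pearson) intervals at 95%. Members on in a class are described, and up to 12 called members per comparison, by size of change, are given with their test. Members and lists were chosen with earlier results of these data known. A few genes are not reported here but enter the counts. Scripts were tested on simulated data.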

Additional observations from a re-analysis of the deposited data

Results flagged for a closer look

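In groups of 5 sums, 47 pairs of a class and a member on in it were examined for a sum far from the others, and 7 had one. Hoxb9, Hoxc5 and Six6 were on in glia-like cells only through the sum that was then flagged. The number flagged can therefore not be set against a chance rate. In cochlear HC-like cells the sum of E16.5 replicate 3 (8 cells) held Meis2 at 72.6 CPM (the others 0 to 17.6) and Six5 at 53.8 CPM (7.53 to 14.1). The sum of E17.5 held Pbx3 at 73.6 CPM (0 to 16). In glia-like cells the 5-cell sum of E18.5 replicate 1 held Hoxb9 at 12.2 CPM, Hoxc5 at 12.2 CPM and Six6 at 15.55 CPM, against at most 0.547 CPM in the other sums. In OM-like cells the sum of E18.5 replicate 1 held Dlx2 at 38.5 CPM (4.53 to 6.71).

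The level of Meis2 in OM-like minus SGN-like sums of a plate was positive on both E14.5 plates, 22.3 CPM in the mean, and negative on every plate of E15.5 (-42.4 to -39.6 CPM) and E16.5 (-43.1 to -14.4 CPM). The difference between stages was not tested.

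The vestibular HC-like cells of E18.5 (27 cells, 2 sums) entered no comparison. These members were higher in both of their sums than in every SGN-like and cochlear HC-like sum of E18.5: Irx2 at 213 CPM in the mean (the others 59.9 to 109), Six2 at 65.8 CPM (18.6 to 38.1), Meis2 at 43.5 CPM (0 to 3.11), Pax2 at 15.3 CPM (0.00757 to 7.49) and Dlx3 at 14.8 CPM (0.0833 to 1.23).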

How the results depend on the processing

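Counts of called members moved by over 1.5 times under few settings. With no filter on low counts they were 27 for glia-like and 27 for OM-like against SGN-like cells and 11 for HC-like cells. With DESeq2 they were 9 for HC-like cells and, where edgeR called 0, 5 in glia-like and 3 in OM-like cells by stage. On SS2_20 plates alone the neuronal count from E14.5 was 6, and with the plate as a replicate block the count in II-like cells was 3; the block moved no other count of members that far. Leaving out each plate in turn gave 17 to 19 calls for glia-like and 15 to 18 for OM-like against SGN-like cells, 8 to 13 for OM-like against glia-like, 2 to 9 for HC-like, 6 to 15 for neurons from E14.5, 1 to 9 at P3, 1 to 5 for II-like and 0 in glia-like and OM-like cells by stage. Lhx2 reversed in neurons from E14.5 without E14.5 replicate 2 (log2 fold change 1.91, the range without each plate being -9.22 to 1.91), and Irx3 reversed at P3 (0.84) under the cell filter of the study's reporting form. The cause was not tested for any of these.

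Over all genes, the count for glia-like against SGN-like cells went from 8509 to 4350 with mixed cells left out, and that for OM-like against glia-like from 2257 to 1232 with mixed cells left out and to 3971 with at least 10 cells per sum or on SS2_20 plates. It went from 3390 to 5465 for HC-like cells with DESeq2, from 3526 to 857 for neurons from E14.5 on SS2_20 plates, and from 1329 to 2256, 2703 and 747 for II-like cells with no filter, DESeq2 and the block. For glia-like cells by stage, where 0 were called, it was 996 with DESeq2, 18 with glial code genes kept for clustering, 1 with mixed cells left out and on SS2_20 plates a number equal to 0.857% of the genes tested in the full comparison, and for OM-like cells 352 with DESeq2 and 3 with no filter. Leaving out single plates moved these counts by over 1.5 times as well, the lowest and highest being 1484 and 2563 for OM-like against glia-like, 1632 and 4564 for HC-like, 2316 and 4261 for neurons from E14.5, 2815 and 4485 at P3, 0 and 1 in OM-like cells by stage and 277 and 1629 for II-like cells. II-like cells were not run with mixed cells left out or glial code genes kept, where 0 and 2 sums remained, and SS2_20 plates alone could not give the HC-like, II-like and P3 comparisons. Counting central nervous system glia, or the glia cluster with mesenchyme genes, as glia-like, at least 10 cells per sum for members on, and SS2_20 plates alone for members on were chosen after seeing the data. Small sums, down to 4 cells, set the limits of HC-like values.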
